A study of Mus musculus with 2 samples.

Results

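The chemokines and chemokine receptors of the mouse colon were examined as 60 genes, chosen by symbol alone from the 33083 genes listed in both libraries. The symbols cover the CC, CXC, XC and CX3C ligands, their receptors, and the atypical receptors named Ackr, and they gave 38 ligands, 18 receptors and 4 atypical receptors. The material was 1 single-cell RNA library from the colon of transgenic Alzheimer's disease (AD) model mice, named APP/PS1-21 in the series' design text, and 1 from the colon of wild-type (WT) mice. Per the labels, minced colon tissue was dissociated with trypsin plus DNase I before red cell lysis. The age, sex and number of the animals and the promoter of the transgenes are not given in the sources used here. The series asks about tuft cells, which are rare chemosensory cells of the gut lining.

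Chemokines are small secreted proteins that guide leukocytes through G protein-coupled receptors on the cell surface. In the gut, fibroblasts and vessels place lymphocytes and plasma cells with ligands such as Cxcl12 and Cxcl13, epithelium calls in immune cells with Ccl20, Ccl25 and Ccl28, and macrophages and lymphocytes release the inflammatory ligands. Atypical receptors bind chemokines without the usual G protein signal, and take them up or carry them across cells.

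Each genotype had a single library, which leaves the spread between animals unknown and allows no test of genotype, so each difference below is one between these 2 libraries. After filtering, 4686 AD and 1549 WT cells remained, with a median depth of 3714.5 UMIs (unique molecular identifiers, each standing for 1 captured RNA molecule) in AD and 3722 in WT cells. The limit of 25% mitochondrial UMIs had removed 29.2% of the AD barcodes and 60.4% of the WT barcodes. The libraries shared 7 barcodes, of which 3 were kept in each. Clusters were built without the 60 genes and named from markers of other genes, which gave 11 classes of 20 or more cells per library. Levels are given as CPM (the sum of UMIs of the gene over that of all genes in the class and library, scaled to 1e+06), and intervals are exact, at 95%, and cover counting error only. Log2 ratios are AD over WT with 0.5 UMIs added to each sum. The classes held goblet-like cells (505 AD, 107 WT), colonocyte-like cells (365 AD, 104 WT), enteroendocrine-like cells (74 AD, 61 WT) and other epithelial cells with no named type (518 AD, 246 WT). The stroma held fibroblast-like (796 AD, 237 WT), endothelial-like (78 AD, 87 WT) and smooth muscle-like cells (48 AD, 20 WT). Immune cells were lymphocyte-like, covering T and innate lymphocytes (500 AD, 243 WT), B-like (476 AD, 230 WT), plasma-like (813 AD, 45 WT), and macrophage- and monocyte-like (181 AD, 50 WT, called macrophage-like below). Markers of plasma cells, a list that includes the immunoglobulin genes Igha and Igkc, were higher in the AD library in each of the other 10 classes, at 14298 CPM in AD and 644 CPM in WT lymphocyte-like cells and 14179 CPM in AD and 362 CPM in WT fibroblast-like cells, and their part in the differences was not tested.

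Of the 60 genes, 38 had at least 30 UMIs in the kept cells of both libraries together, namely 24 ligands, 11 receptors and 3 atypical receptors. Another 7 were detected below that. They were Cxcl3 (16 UMIs in AD, 0 in WT), Cxcl15 (1 in AD, 0 in WT), Ccl24 (19 in AD, 6 in WT), Ccr8 (16 in AD, 3 in WT), Ccr3 (11 in AD, 1 in WT), Cxcr2 (3 in AD, 2 in WT) and Xcr1 (21 in AD, 6 in WT). The remaining 15 were listed at 0 in all 10821 barcodes of both libraries: Ccl2, Ccl6, Ccl19, Ccl21a, Ccl21b, Ccl21d, Ccl26, Ccl27b, Cxcl10, Cxcl17, Xcl1, Ccr10, Cxcr1, Cxcr6 and Ackr4. A count of 0 allows up to 3 UMIs in a library by sampling alone. Whether reads of these genes could be assigned to them in the counting reference is not known, so a 0 here is a listed value and not a sign that the RNA is lacking. Among all genes, 6992 (21.1%) were at 0 in both libraries. None of the 15 shares exons on its own strand with another gene in the GRCm38 annotation. So the partners of several measured genes are unread here, among them Ccr10, the receptor that brings plasma cells to Ccl28, Cxcr6, the receptor of Cxcl16, and Ccl19 and Ccl21a, the ligands of Ccr7.

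Part of these genes sit in 6 groups of neighbours, along which some leading classes were shared and others were not. On chromosome 11, 6 CC ligands lie within 270 kb (chr11:82035571-82305690, GRCm38): Ccl2 was at 0, Ccl7, Ccl12 and Ccl8 led in macrophage-like cells, Ccl11 led in fibroblast-like cells, and Ccl1 led in lymphocyte-like cells. A group 139 kb long on the same chromosome (chr11:83525778-83664683) held Ccl5, which led in lymphocyte-like cells, and Ccl9, Ccl3 and Ccl4, which led in macrophage-like cells, with Ccl6 at 0. The neutrophil-attracting ligands Cxcl5, Cxcl3, Cxcl15, Cxcl1 and Cxcl2 lie within 147 kb on chromosome 5 (chr5:90759360-90905938). The receptors Ccr9, Cxcr6, Xcr1, Ccr1, Ccr3 and Ccr2 lie within 435 kb on chromosome 9 (chr9:123678439-124113557), and Ccl22, Cx3cl1 and Ccl17 lie within 66.4 kb on chromosome 8 (chr8:94745590-94812036). The group of Ccl27b, Ccl19 and Ccl21a on chromosome 4 (chr4:42655251-42773993) was at 0 throughout.

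**Figure D1:**
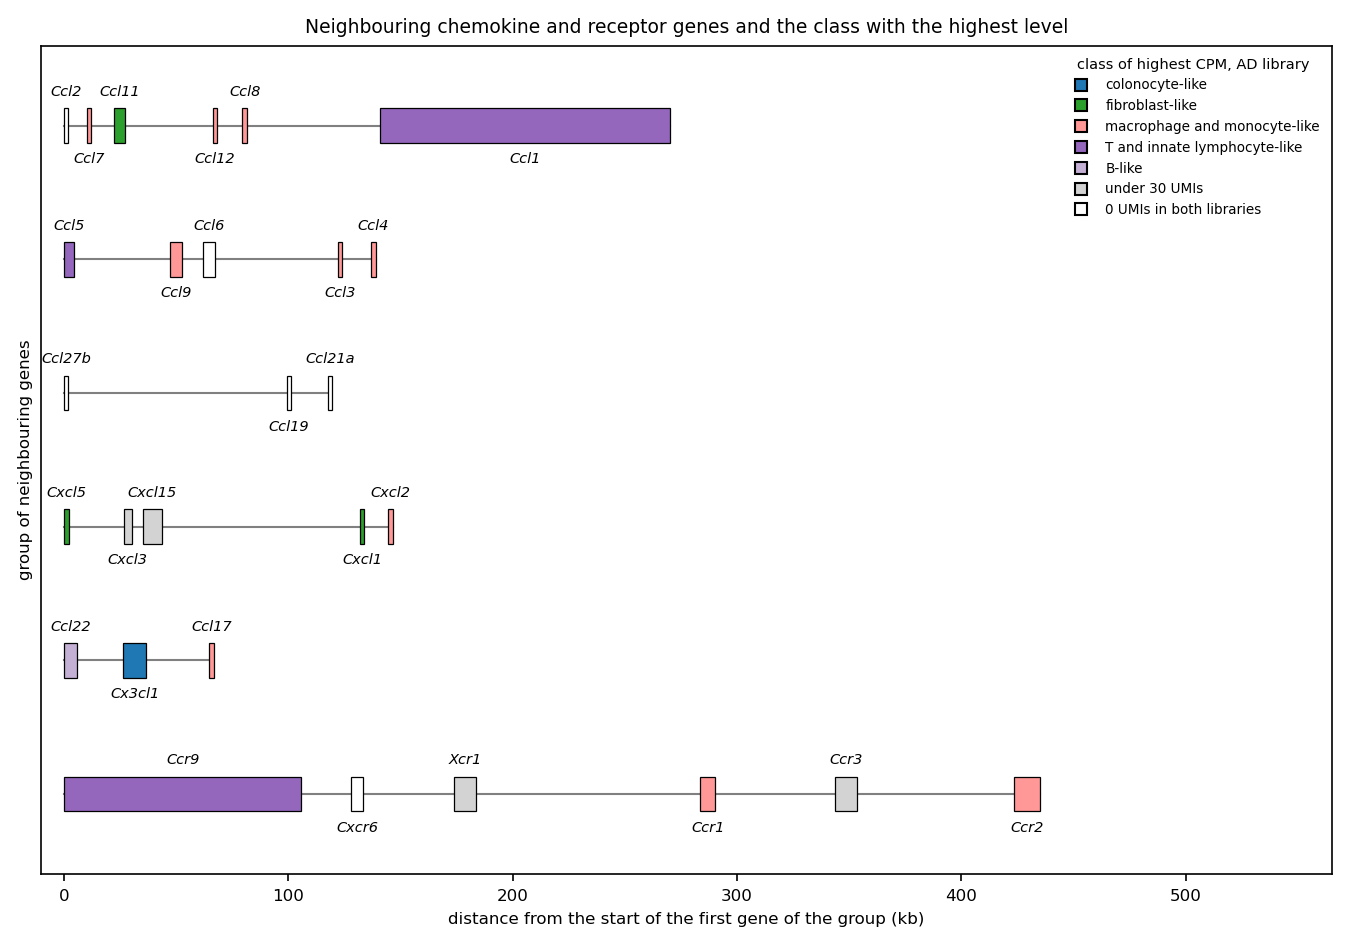
Map of the 6 groups of neighbouring chemokine and receptor genes, with distance in kb from the start of the first gene on the x axis; boxes are genes, coloured by the class with the highest CPM in the AD library, grey for genes under 30 UMIs and white for genes at 0. On chromosome 11, the group with Ccl11 has fibroblast-like, macrophage-like and lymphocyte-like leaders, and the group with Ccl5 has macrophage-like and lymphocyte-like ones.

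The upstream sequence of 4 ligands is shown because Cxcl1, Cxcl2 and Cxcl3 carry near-identical motifs at like places, and because Cxcl1 and Ccl20 are among the genes past 2-fold between the libraries described below. The letters searched were GGG, any 3 bases and then TTCC, a common form of the site of NF-kB factors, on both strands of the 250 bases before the start of each gene in the RefSeq table (GRCm38.p6). Of 32851 promoters, 1527 (4.65%) held them, and 9 of the 46 member genes with a promoter there did: Ccl1, Ccl9, Ccl20, Cxcl1, Cxcl2, Cxcl3, Cxcl10, Ccr3 and Ccr6. A match is a description of these letters, and it was not tested whether anything binds there. Capitals mark the matches, and in Cxcl1, Cxcl2 and Cxcl3 a match on each strand overlaps in the run GGGAATTTCCC. Each window of 120 bases is from the plus strand, which is the strand of the gene.
Cxcl1 (chr5:90891116-90891235): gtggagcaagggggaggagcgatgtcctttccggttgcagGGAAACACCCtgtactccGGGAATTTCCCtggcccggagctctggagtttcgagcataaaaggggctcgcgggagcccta
Cxcl2 (chr5:90903762-90903881): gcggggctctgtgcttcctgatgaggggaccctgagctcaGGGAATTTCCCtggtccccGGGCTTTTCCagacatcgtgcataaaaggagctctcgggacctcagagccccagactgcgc
Cxcl3 (chr5:90785981-90786100): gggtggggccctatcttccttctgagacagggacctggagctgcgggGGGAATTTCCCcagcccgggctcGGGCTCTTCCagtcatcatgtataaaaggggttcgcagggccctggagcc
Ccl20 (chr1:83116646-83116765): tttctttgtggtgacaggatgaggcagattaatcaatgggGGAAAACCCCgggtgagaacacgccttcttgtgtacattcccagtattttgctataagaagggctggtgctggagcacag

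Source and target classes were alike in the 2 libraries for most genes. Of the 34 genes with at least 30 UMIs in each library, 27 had their highest CPM in the same class in AD and WT cells. The 7 that differed were Ccl22, Ccl25, Ccl27a, Ccl28, Cxcl1, Cxcl12 and Cxcl14. For Ccl25, which recruits Ccr9-bearing cells, and for Ccl27a, no class reached 25 CPM in either library, so their order carries little.

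**Figure D2:**
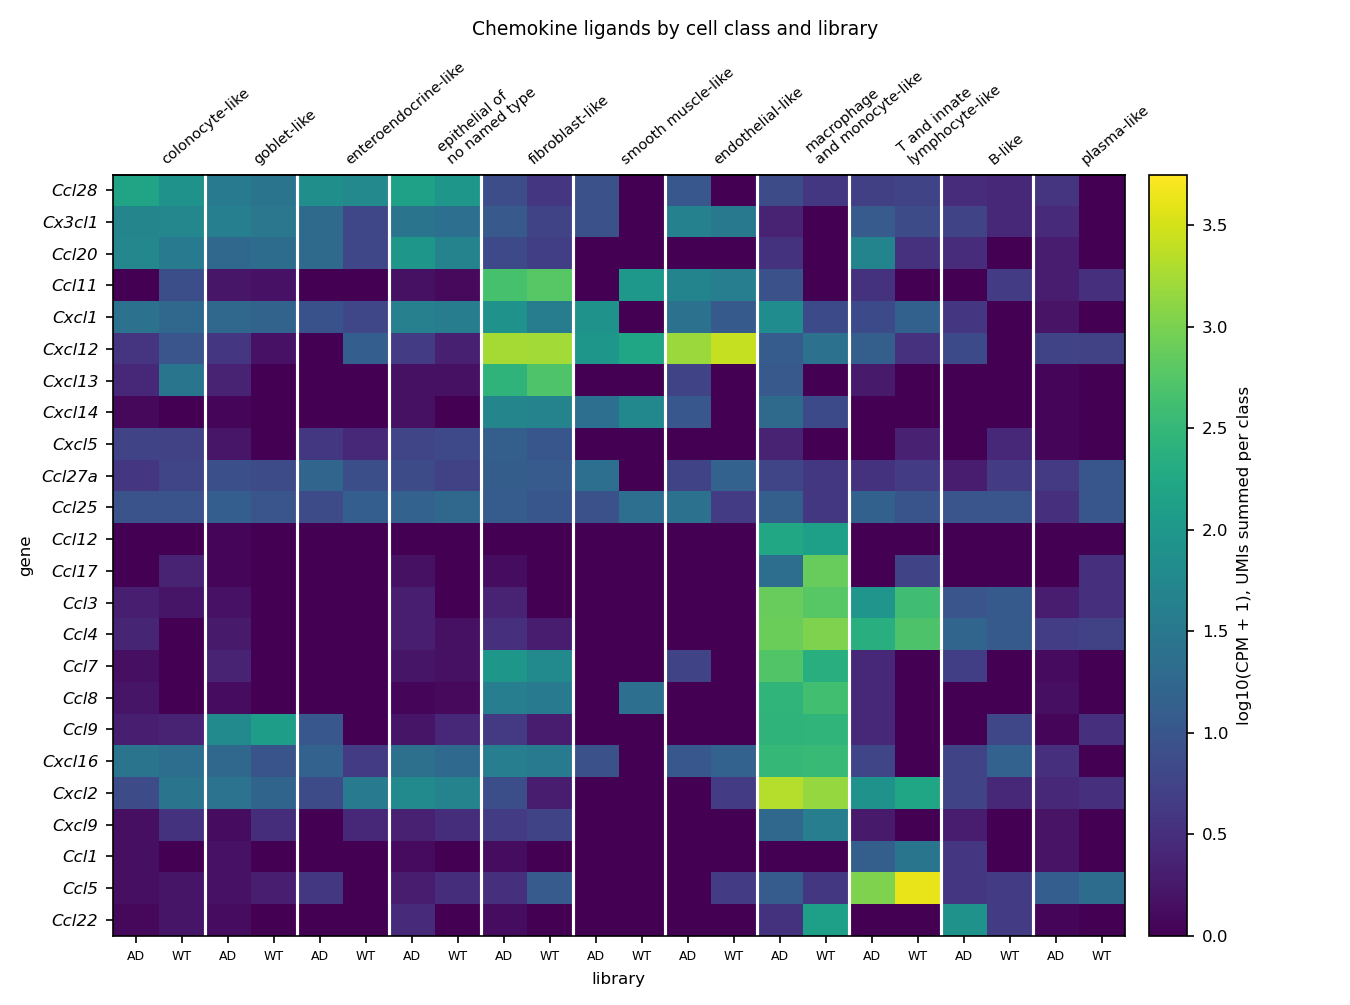
Levels of the 24 measured ligands, as log10 of CPM + 1 from UMIs summed per class, with a pair of columns for each of 11 classes (AD left, WT right). Cxcl12, Ccl11 and Cxcl13 are brightest in the stroma, Cxcl2, Ccl3 and Ccl4 in macrophage-like cells, Ccl5 in lymphocyte-like cells and Ccl28 in epithelium.

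Fibroblast-like cells had the highest levels of Ccl11 and Cxcl13 in both libraries, and of Cxcl12 and Cxcl14 in AD only. In WT, Cxcl12 was highest in endothelial-like cells and Cxcl14 in smooth muscle-like cells, at 55.6 CPM. Those 20 smooth muscle-like cells held only 9.26% of the 54 Cxcl14 UMIs of kept WT cells, and 4600 CPM of fibroblast markers. The order of classes for Cxcl14 in WT thus carries little. Cxcl12, which retains and places leukocytes through Cxcr4, stood at 1760 CPM in AD and 1712 CPM in WT fibroblast-like cells, a log2 ratio of 0.04 (-0.04 to 0.12). Endothelial-like cells held 1512 CPM of Cxcl12 in AD and 2602 CPM in WT, a log2 ratio of -0.78 (-0.98 to -0.59). The make-up of this class differed, with endothelial markers at 7397 CPM in AD and 9780 CPM in WT. Pericyte markers summed to 2263 CPM in AD and 665 CPM in WT there, and fibroblast markers to 1172 CPM in AD and 224 CPM in WT. Their part was not tested. Ccl11 (eotaxin, an attractant of eosinophils) stood at 460 CPM in AD and 595 CPM in WT fibroblast-like cells, and Cxcl13, the ligand that draws B cells into follicles, at 278 CPM in AD and 515 CPM in WT. For Cxcl13 the log2 ratio was -0.89 (-1.05 to -0.73), short of 2-fold. Cxcl14 stood at 49.5 CPM in AD and 46.6 CPM in WT fibroblast-like cells.

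The 4 fibroblast-like clusters divided these ligands unequally. In the cluster led by Fgf10, Igfbp3 and Adamdec1 (227 AD, 74 WT cells), Cxcl12 reached 2825 CPM in AD and 2492 CPM in WT, and Cxcl13 reached 640 CPM in AD and 1169 CPM in WT. The small cluster led by Procr and Foxl1 (39 AD, 24 WT cells) had the highest Cxcl12 and Cxcl14, with Cxcl14 at 571 CPM in AD and 330 CPM in WT cells. The cluster led by Inmt, Gdf10 and Pi16 (432 AD, 118 WT cells) held less Cxcl12, at 768 CPM in AD and 651 CPM in WT, and the most Ackr3, the atypical receptor that takes up Cxcl12, at 186 CPM in AD and 145 CPM in WT. Of the fibroblast-like cells with a Cxcl13 UMI, 140 of 141 in AD and 37 of 38 in WT had a Cxcl12 UMI too. Cxcl12 was found in 628 of all 796 AD and 188 of all 237 WT fibroblast-like cells. The fourth cluster, led by Col6a5 and Wnt4 (98 AD, 21 WT cells), had lower Cxcl13 (462 CPM in AD, 1271 CPM in WT) and lower Ccl11 (306 CPM in AD, 960 CPM in WT) in the AD library. Its WT levels rest on few, shallow cells, as the median over both libraries was 1271 UMIs per cell. It was also mixed, with 3890 CPM of epithelial markers, against 963 CPM in the Inmt, 334 CPM in the Fgf10 and 1144 CPM in the Procr cluster. The part of this mixture in the differences was not tested.

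**Figure D3:**
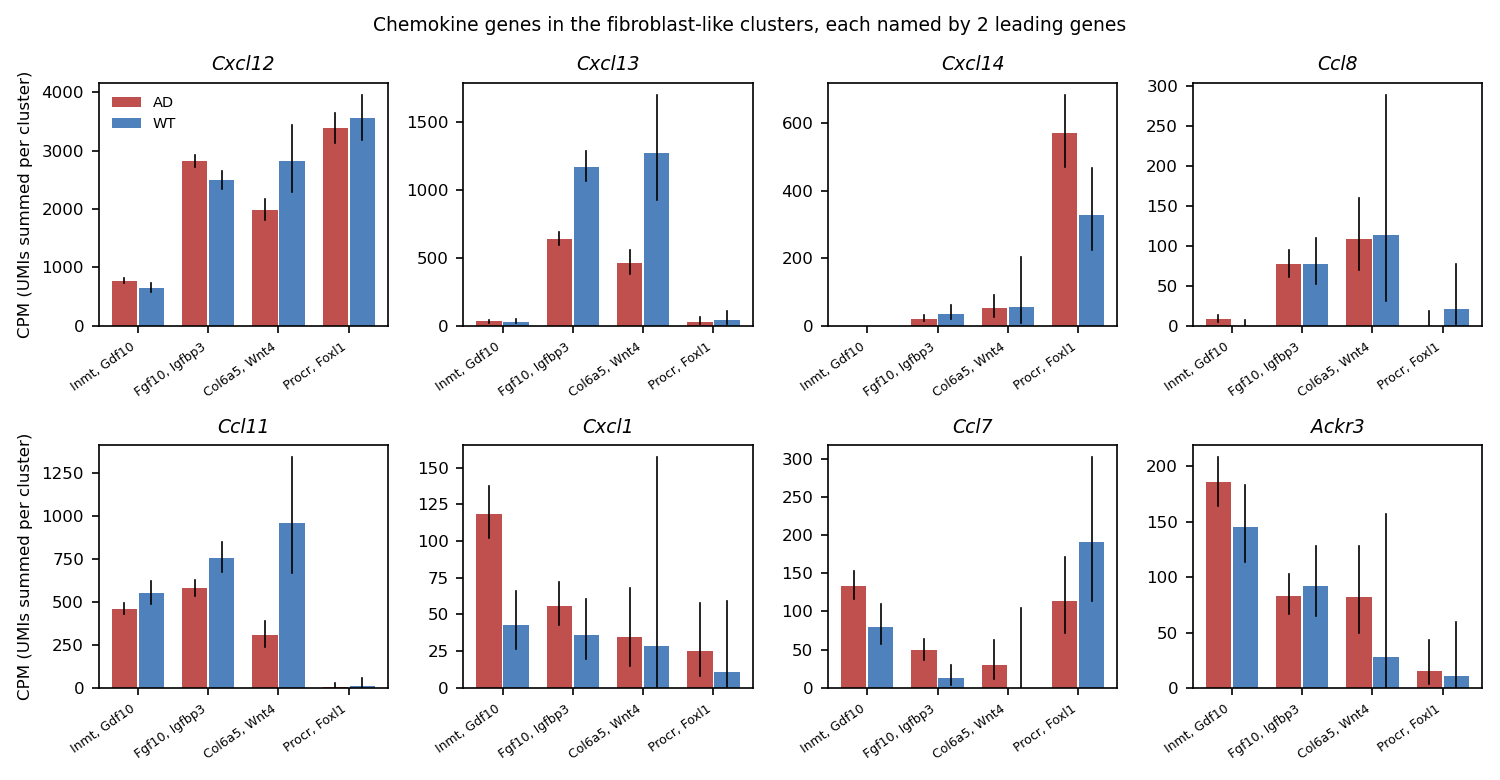
Level of 8 genes (CPM, UMIs summed per cluster) in the 4 fibroblast-like clusters, each named by 2 leading genes, with AD bars left of WT bars and exact 95% counting intervals as lines. Cxcl13 is highest in the Fgf10 and Col6a5 clusters and lower there in AD, and Cxcl1 and Ackr3 are highest in the Inmt cluster in AD.

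In the epithelium, Ccl28, the mucosal ligand for antibody-secreting cells, was read in all 4 epithelial classes. It stood at 156 CPM in AD and 83.0 CPM in WT colonocyte-like cells (log2 ratio 0.90, 0.64 to 1.19), and at 139 CPM in AD and 95.04 CPM in WT epithelial cells of no named type (0.54, 0.38 to 0.72). In goblet-like cells it stood at 34.9 CPM in AD and 26.9 CPM in WT, and in enteroendocrine-like cells at 73.3 CPM in AD and 57.1 CPM in WT. All 4 classes thus had more Ccl28 in AD, with no class past 2-fold, and in goblet-like and enteroendocrine-like cells the interval of the ratio includes 0. Cx3cl1 (fractalkine, a membrane-bound ligand of Cx3cr1) was close in the 2 libraries, at 49.6 CPM in AD and 53.4 CPM in WT colonocyte-like cells. Ccl9, a ligand of Ccr1, was read in goblet-like cells at 61.4 CPM in AD and 121 CPM in WT, a log2 ratio of -0.98 (-1.22 to -0.73), just short of 2-fold.

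Macrophage-like cells had the highest levels of the inflammatory ligands Cxcl2 (2122 CPM in AD, 1441 CPM in WT), Ccl3 (767 CPM in AD, 602 CPM in WT) and Ccl4 (819 CPM in AD, 1057 CPM in WT). Ccl8 (284 CPM in AD, 413 CPM in WT) and the monocyte-attracting ligand Ccl12 (179 CPM in AD, 132 CPM in WT) also led there, as did Cxcl16 (318 CPM in AD, 341 CPM in WT). Over the whole class these were within 2-fold between the libraries. Inside it they were not always: in a subcluster of 65 AD and 17 WT cells with Cx3cr1 at 810 CPM in AD and 686 CPM in WT, Cxcl2 stood at 2833 CPM in AD and 1254 CPM in WT, Ccl3 at 1169 CPM in AD and 421 CPM in WT, and Ccl4 at 1137 CPM in AD and 509.6 CPM in WT. Ccl8 stood at 463 CPM in AD and 1176 CPM in WT there, with 115 of its 120 WT UMIs in 3 cells. Few WT cells also carried the rest, as 3 cells held 90 of 128 Cxcl2, 24 of 43 Ccl3 and 40 of 52 Ccl4 UMIs. The log2 interval reached below 2-fold for Cxcl2 (0.90 to 1.46) and Ccl4 (0.73 to 1.61), but not for Ccl3 (1.01 to 1.97). A subcluster led by S100a8 and S100a9, the calprotectin genes of neutrophils and inflammatory monocytes, held Cxcl2 at 2746 CPM in its 30 AD cells and 4899 CPM in its 9 WT cells, where 3 cells held 215 of the 279 UMIs. Cxcl9, a ligand of Cxcr3, was low, at 17.7 CPM in AD and 38.9 CPM in WT macrophage-like cells.

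**Figure D4:**
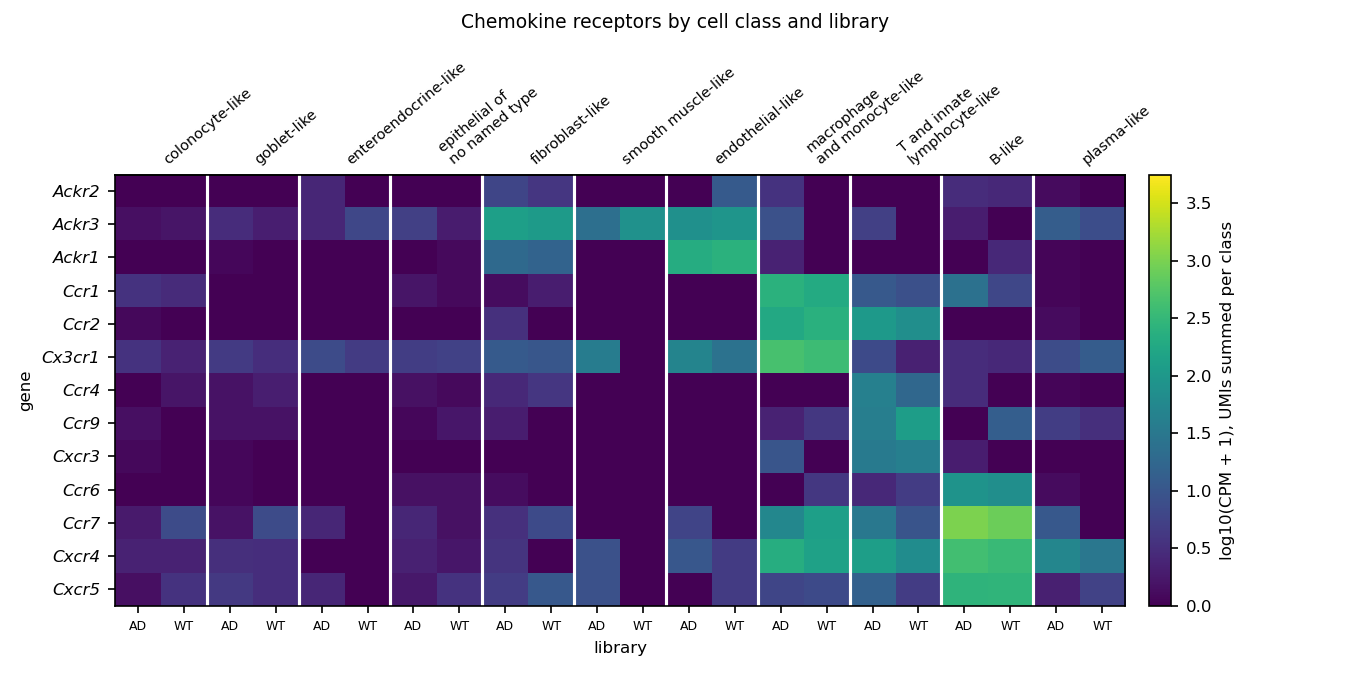
Levels of 10 measured receptors and 3 atypical receptors, as log10 of CPM + 1 from UMIs summed per class, with a pair of columns for each of 11 classes (AD left, WT right). Ccr7, Cxcr4, Cxcr5 and Ccr6 are brightest in B-like cells, Cx3cr1, Ccr1 and Ccr2 in macrophage-like cells, and Ackr1 in endothelial-like cells.

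Receptors were read mostly in the immune classes, and each one with at least 30 UMIs in both libraries led in the same class in both. B-like cells carried Ccr7, which guides cells to lymphoid tissue, at 1029 CPM in AD and 805 CPM in WT (log2 ratio 0.35, 0.19 to 0.51). They also carried the follicle receptor Cxcr5 at 271 CPM in AD and 288 CPM in WT, Cxcr4 at 415 CPM in AD and 347 CPM in WT, and Ccr6, the receptor of Ccl20, at 83.9 CPM in AD and 69.7 CPM in WT. A Ccr7 UMI was found in 135 of 175 AD and 75 of 103 WT B-like cells that had a Cxcr5 UMI, near its share of all B-like cells, 341 of 476 in AD and 158 of 230 in WT. Macrophage-like cells carried Cx3cr1 at 456 CPM in AD and 365 CPM in WT, Ccr1 at 248 CPM in AD and 198 CPM in WT, and the monocyte receptor Ccr2 at 181 CPM in AD and 237 CPM in WT. Lymphocyte-like cells carried Cxcr3, a receptor of type 1 effector T cells, at 32.6 CPM in AD and 40.2 CPM in WT. All of these ratios were within 2-fold.

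Atypical receptors marked the stroma and vessels. Ackr1, which carries chemokines across venular endothelium, stood at 211 CPM in AD and 245 CPM in WT endothelial-like cells. Its exons share 25.7% of their bases with Cadm3 on the same strand, so some reads may belong to that gene. Ackr3 stood at 130 CPM in AD and 108 CPM in WT fibroblast-like cells and at 76.6 CPM in AD and 88.9 CPM in WT endothelial-like cells. Ackr2, a scavenger of CC ligands, had only 27 UMIs in kept AD and 12 in kept WT cells.

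Set against the receptors, several ligands and targets met across classes in both libraries. Fibroblast-like Cxcl12 and Cxcl13 faced B-like Cxcr4 and Cxcr5, epithelial Ccl20 faced B-like Ccr6, and colonocyte-like Cx3cl1 faced macrophage-like Cx3cr1. Lymphocyte-like Ccl5 faced Ccr1 of macrophage-like cells. These are pairs of levels and say nothing of contact between the cells.

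Between the libraries, 91 pairs of a member gene and a class had at least 30 UMIs. Of these, 14 had a CPM ratio of at least 2 towards AD and 10 one of at least 2 towards WT, and these are called past 2-fold, higher or lower. The 14 include 2 pairs in plasma-like cells with 0 UMIs in WT, for which a difference of that size is not shown. Over all genes and classes, the same rule put 4.99% of pairs as higher and 3.47% as lower. Lymphocyte-like and macrophage-like cells held 14 of the 24 pairs past 2-fold. Many rested on few cells: in 9 of the 24 pairs, 2 of them higher and 7 lower in AD, 3 cells held over 50% of the UMIs of the library with the higher level. Without the 3 cells with most UMIs of each gene, 25 pairs were higher and 4 lower, but that removal takes a larger share of the cells in WT, the smaller library.

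**Figure D5:**
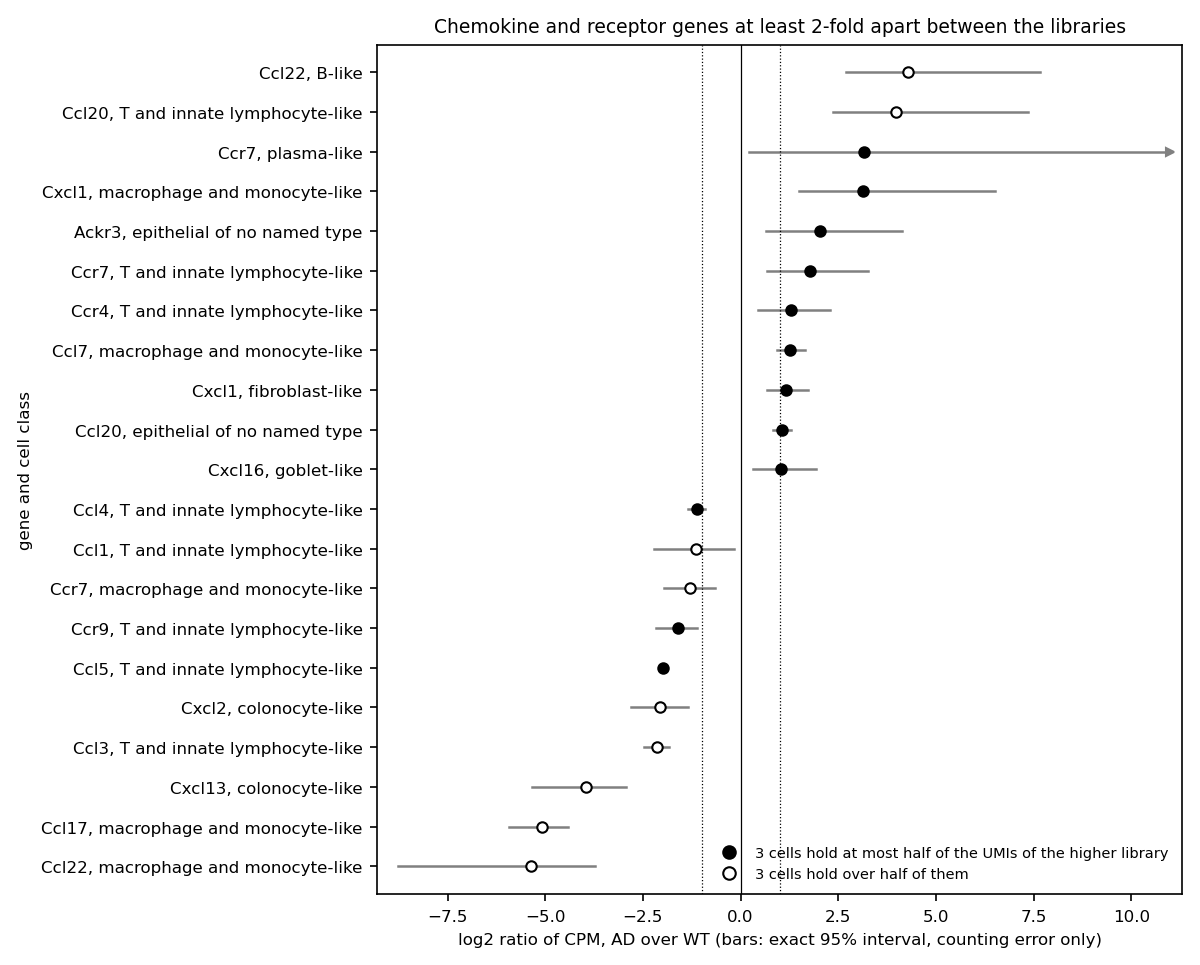
Log2 ratio of CPM, AD over WT, for 21 pairs of gene and class at least 2-fold apart, with exact 95% counting intervals as bars and arrows where a bound is infinite; filled points are pairs in which 3 cells hold at most 50% of the UMIs of the higher library, open points the others. Most of the lower pairs are open points, while Ccl5, Ccl4 and Ccr9 in lymphocyte-like cells are filled.

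The cytotoxic-cell ligands were lower in AD lymphocyte-like cells. Ccl5, a ligand kept ready in effector T and natural killer cells, stood at 1063 CPM (1272 UMIs) in AD and 4231 CPM (3469 UMIs) in WT, a log2 ratio of -1.99 (-2.09 to -1.90). It was detected in 130 of 500 AD (26%) and 148 of 243 WT (60.9%) lymphocyte-like cells (median depth 2103.5 UMIs in AD and 3175 in WT), against 1.16% of AD and 1.63% of WT epithelial cells of no named type (10636 UMIs in AD and 14091.5 in WT). In cells thinned to 1000 UMIs, Ccl5 was left in 102 of 426 AD cells (23.9%; 93 to 108 cells over 20 draws) and in 118 of 226 WT cells (52.2%; 117 to 128 cells). Ccl3 stood at 89.4 CPM in AD and 398 CPM in WT (-2.15), and Ccl4 at 231 CPM in AD and 506 CPM in WT (-1.13). For Ccl3, 3 cells held 53.4% of the WT UMIs. The gut-homing receptor Ccr9 stood at 39.3 CPM in AD and 121 CPM in WT (-1.61, -2.15 to -1.11). It was found in 13 of 500 AD cells (2.6%, 1.39 to 4.41%) and 16 of 243 WT cells (6.58%, 3.81 to 10.5%), with overlapping intervals. In each library the 3 cells with most Ccr9 held a large part, 29 of 47 UMIs in AD and 47 of 99 in WT. In this class 5 of 13 members were lower, where 2.76% of all genes tested were, and 3 were higher, where 6.46% of all genes were.

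The make-up of the lymphocyte-like class differed between the libraries. A cluster led by Cd8a and killer-cell receptor genes held 232 of 500 AD and 189 of 243 WT cells. It made up most of the class in WT but not in AD, where it was still the largest cluster. Inside that cluster Ccl5 was 2269 CPM in AD and 5526 CPM in WT (log2 ratio -1.28), Ccl3 was 196 CPM in AD and 520 CPM in WT (-1.41), and Ccr9 was 73.8 CPM in AD and 158 CPM in WT (-1.09). Ccl4 was 508 CPM in AD and 645 CPM in WT there (-0.34), within 2-fold. Nearly every Ccl4-bearing cell of the cluster also held Ccl5, 28 of 30 in AD and 33 of 34 in WT. Ccl5 was found in 119 of all 232 AD and 146 of all 189 WT cells of the cluster. Other receptors had higher values in AD inside it: Cxcr4 was 97.9 CPM in AD and 41.5 CPM in WT (1.22), Ccr2 was 46.2 CPM in AD and 11.2 CPM in WT (1.98), and Ccr7 was 48.0 CPM in AD and 9.57 CPM in WT (2.24). Ccr2 and Ccr7 were low in WT there. The whole WT lymphocyte-like class held only 7 Ccr7 UMIs, in 5 cells, so the Ccr7 ratio rests on few UMIs.

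Over all lymphocyte-like cells, Ccr7 stood at 30.9 CPM in AD and 8.54 CPM in WT (log2 ratio 1.78, 0.67 to 3.27). Ccr4, a receptor of type 2 helper and regulatory T cells, stood at 42.6 CPM in AD and 17.1 CPM in WT (1.28, 0.44 to 2.29). Both intervals reached below 2-fold. Within the cluster led by Foxp3, the regulatory T cell factor (137 AD, 25 WT cells), Ccr4 was 79.9 CPM in AD and 129 CPM in WT, the opposite order. The whole WT lymphocyte-like class held only 14 Ccr4 UMIs, in 9 cells, so that order rests on few UMIs. Ccl20 stood at 47.6 CPM (57 UMIs) in AD and 2.44 CPM (2 UMIs) in WT lymphocyte-like cells, with 52 of the 57 AD UMIs in 3 cells. Ccl1, a ligand of Ccr8, stood at 12.5 CPM in AD and 28.1 CPM in WT, with all 23 WT UMIs in 3 cells. Leaving out the 3 cells with most of it in each library leaves 2 UMIs in AD and 0 in WT, too few for a ratio.

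Ccl20, the ligand that calls Ccr6-bearing lymphocytes and dendritic cells to the epithelium, was higher in AD epithelial cells of no named type. The class had a different make-up in each library, with a cluster led by histone genes (50 AD, 83 WT cells) beside a larger one (468 AD, 163 WT cells), and crypt markers summed to 384 CPM in AD and 714 CPM in WT. Ccl20 stood at 95.9 CPM (88.6 to 104; 633 UMIs) in AD and 46.3 CPM (40.1 to 53.1; 203 UMIs) in WT, a log2 ratio of 1.05 (0.82 to 1.29). The ratio was 1.05 in the larger cluster and 1.18 in the one led by histone genes. A Ccl20 UMI was found in 140 of 518 AD and 43 of 246 WT cells, and 109 of those 140 and 32 of those 43 held Ccl28 too. Ccl28 was found in 328 of all 518 AD and 134 of all 246 WT cells of the class. In colonocyte-like cells Ccl20 stood at 52.9 CPM in AD and 32.7 CPM in WT (0.68), and in goblet-like cells at 17.5 CPM in AD and 20.2 CPM in WT (-0.22). Leaving mitochondrial, ribosomal protein and immunoglobulin genes out of the totals gave 0.99, just under 2-fold. Ackr3 was also past 2-fold in this class, at 4.09 CPM (27 UMIs) in AD and 0.912 CPM (4 UMIs) in WT, but as a mean of each cell's own CPM its log2 ratio was -1.40, in the other direction. In the class 2 of 11 members were higher, where 2.9% of all genes were, and none was lower, where 3.95% were.

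Cxcl1, a neutrophil attractant, was higher in AD fibroblast-like cells, at 83.8 CPM (252 UMIs) in AD and 36.7 CPM (37 UMIs) in WT, a log2 ratio of 1.17 (0.69 to 1.73). The AD UMIs lay in 117 of 796 cells, and the 3 cells with most of them held 30. The cluster led by Inmt and Gdf10 showed it most, with 119 CPM in AD and 43.0 CPM in WT (1.43). Cxcl1 was the only 1 of 15 members past 2-fold in the class, where 4.83% of all genes were higher and 1.98% lower. Its epithelial level was close in the libraries, at 41.5 CPM in AD and 37.8 CPM in WT cells of no named type. Epithelial markers summed to 1123 CPM in AD and 410 CPM in WT fibroblast-like cells, and their part was not tested.

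In macrophage-like cells 3 of 17 members were higher in AD (7.98% of all genes) and 3 were lower (4.04% of all genes). Ccl7, a monocyte-attracting ligand of Ccr2, stood at 546 CPM (431 UMIs) in AD and 225 CPM (75 UMIs) in WT, a log2 ratio of 1.27 (0.93 to 1.66). Cxcl1 stood at 64.7 CPM (51 UMIs) in AD and 5.99 CPM (2 UMIs) in WT (3.12, 1.51 to 6.52). Each of the 16 AD and 2 WT cells with Cxcl1 also held Cxcl2. Cxcl2 was found in 110 of all 181 AD and 18 of all 50 WT cells of the class. The 3 AD cells with most Cxcl1 held 23 of the 51 UMIs and had 135895 CPM of plasma markers. Ccl7 and Cxcl1 are also read in fibroblast-like cells, and fibroblast markers summed to 611 CPM in AD and 105 CPM in WT macrophage-like cells. Their part was not tested. As a mean of each cell's own CPM, the Ccl7 log2 ratio was 0.55, and in the subcluster with most Ccl7 (65 AD, 17 WT cells) it was 0.74, both under 2-fold.

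The 3 genes lower in AD macrophage-like cells rested on few cells. Ccl17, a ligand of Ccr4, stood at 21.6 CPM (17 UMIs) in AD and 749 CPM (250 UMIs) in WT, and 249 of the WT UMIs lay in 3 cells, with 2257 CPM of dendritic and 1012 CPM of macrophage markers. Ccl22, the other Ccr4 ligand, had 2 UMIs in AD and 43 UMIs in WT, all 43 in 1 cell in which the macrophage markers were at 0. Ccr7 had 42 UMIs in AD and 44 UMIs in WT, with all 44 in 2 cells. In the dendritic-like subcluster led by genes such as Flt3 (27 of 181 AD cells, 15 of 50 WT cells), Ccl17 had 16 UMIs in AD and 250 in WT. Leaving out the 3 cells with most UMIs in each library leaves Ccl17 with 2 UMIs in AD and 1 in WT, and Ccr7 with 6 in AD and 0 in WT, so neither difference can be read without those cells.

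B-like and plasma-like cells each had 2 members higher in AD and none lower. In B-like cells 4.93% of all genes were higher and 1.9% lower, over 6 members. Ccl22 had 85 UMIs in AD, all in 3 cells, and 2 UMIs in WT in 1 cell, which held no B marker UMI and 9368 CPM of dendritic markers. In plasma-like cells 10.3% of all genes were higher and 5.95% lower, over 7 members. Ccr7 had 69 UMIs in AD and 0 in WT plasma-like cells. Its AD level was 1.47-fold that of a set floor of 3 UMIs over the 45 WT cells. That value is not a bound, and the exact interval of the log2 ratio starts at 0.22. Cxcr4, which holds plasma cells in their niche, stood at 51.2 CPM in AD and 29.3 CPM in WT plasma-like cells (0.75).

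The other epithelial differences were small in counts. In goblet-like cells Cxcl16 was the only 1 of 9 members past 2-fold, at 17.5 CPM (103 UMIs) in AD and 8.28 CPM (16 UMIs) in WT, where 3% of all genes were higher and 3.56% lower. Its ratio was under 2-fold at other mitochondrial limits, with a lowest value of 0.39 at 10%. In colonocyte-like cells 2 of 9 members were lower, where 2.11% of all genes were, and none was higher, where 3.11% were. Cxcl2 had 30 UMIs in AD and 42 UMIs in WT there, and its log2 ratio was -2.06, but 0.17 at a mitochondrial limit of 10%. Cxcl13 had 8 UMIs in AD and 44 UMIs in WT, all 44 in 2 cells with 3579 CPM of fibroblast markers, and outside the 3 cells with most UMIs 3 were left in AD and 0 in WT. No member passed 2-fold among the 3 tested in endothelial-like cells (3.95% of all genes higher, 3.34% lower) or the 1 tested in enteroendocrine-like cells (3.63% higher, 4.76% lower). No member had 30 UMIs in smooth muscle-like cells, where 4.85% of all genes were higher and 4.46% lower.

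Genes that work with the chemokine system outside the symbol rule were also read. Of 43 matched genes for adhesion, receptor signalling and leukocyte homing, 252 pairs of gene and class were tested. Of these, 21 (8.33%) were at least 2-fold higher in AD and 8 (3.17%) lower. Over all genes and classes, 4.99% of pairs were higher and 3.47% lower. Cd74 was among the higher genes in lymphocyte-like, enteroendocrine-like, fibroblast-like and goblet-like cells and in epithelial cells of no named type. In smooth muscle-like cells it was too, at 56 UMIs in AD and 0 in WT. Cd74 was within 2-fold in B-like (7562 CPM in AD, 8735 CPM in WT) and plasma-like cells (3187 CPM in AD, 3104 CPM in WT). Class medians of the log2 ratios of the 43 genes lay between -0.06 in smooth muscle-like cells and 0.25 in epithelial cells of no named type. In lymphocyte-like cells Itgae, the integrin that holds T cells in epithelium, was lower, at 69.3 CPM in AD and 146 CPM in WT. Of the 17 NF-kB targets and cytokines that induce chemokines, 5 of 92 pairs (5.43%) were higher and 2 (2.17%) lower. In fibroblast-like cells Tnfaip3, an inhibitor induced by NF-kB, stood at 61.2 CPM (184 UMIs) in AD and 12.9 CPM (13 UMIs) in WT (log2 ratio 2.19), and the list's median there was 0.64, against -0.02 for all genes. Of the 19 handling and immediate early genes, 7 of 206 pairs (3.40%) were higher and 6 (2.91%) lower, and in fibroblast-like cells none of the 19 was past 2-fold, with a median of 0.27. By count, Tnfaip3 was the only 1 of 10 NF-kB list genes tested there past 2-fold.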

How the data were processed

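Per the labels' protocols, single-cell libraries were made from minced colon and sequenced on a NovaSeq. Seurat 3.0.2, Cell Ranger 3.0.1, STAR and the mm10 build are named in the submitters' processing notes. The values the authors deposited are raw UMI counts for each barcode, with neither normalization nor cell annotation. The AD library held 6675 barcodes and 38731915 UMIs and the WT library 4146 barcodes and 26898149 UMIs. No barcode held under 500 UMIs, and barcodes are 20 bases long. The members, gene lists, markers and rules were chosen with earlier results of these data known.

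Cells were kept at 500 or more UMIs, 200 or more genes and up to 25% mitochondrial UMIs. A doublet score of the Scrublet type (assumed rate 0.06) called 5 AD and 1 WT cells, 0.107% and 0.0645%, so doublets were in effect not removed. Log values after scaling each cell to 10000 UMIs, 2000 variable genes without the members, 30 principal components, 15 exact neighbours, a shared-neighbour graph and Leiden clustering at resolution 1 were used. To take a class, a cluster needed 3 of its markers, and 0.3 of the list, found in 10% of the cells and 4-fold above other clusters. Its 10 leading genes could not hold more markers of another class. The epithelial list was not part of this rule. Epithelial cells of no named type were clusters that took no class by it, were not shallow, and passed a minimum summed CPM of epithelial markers.

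UMIs were summed per class and library. All members may be named, except that a gene is not reported here though counts of members include it, and those past 2-fold with at least 30 UMIs are named by class. Intervals are exact, of the Poisson kind for summed UMIs, while those of ratios are conditional on both libraries' sum. Thinned shares are those of 1 draw, with the range over 20 draws. On simulated counts the intervals were checked. Alternatives covered cell filters, the clustering, totals, UMI minimums and leaving out 3 cells. Tools were leidenalg 0.10.2, igraph 0.11.9, scipy 1.17.1, numpy 2.4.6, pandas 2.3.3 and matplotlib 3.10.9, in Python 3.11.15.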

Additional observations from a re-analysis of the deposited data

Results flagged for a closer look

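Ccl22 was past 2-fold in opposite directions in 2 classes, with log2 ratios of AD over WT of 4.275 in B-like and -5.361 in macrophage-like cells, and the difference between the classes was not tested. All 85 AD UMIs of the B-like class lay in 3 cells and all 43 WT UMIs of the macrophage-like class in 1 cell, while Ccl22 was found in 15 AD and 3 WT kept cells in all. Ccr7 had log2 ratios of 1.776 in lymphocyte-like and 3.152 in plasma-like cells, but -1.307 in macrophage-like cells, and this difference was not tested either. The plasma-like value rests on 0 UMIs in WT and is no bound.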

How the results depend on the processing

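No paired analysis was possible because each genotype has 1 library. The counts of pairs past 2-fold, 14 higher and 10 lower, came to 25 higher and 4 lower without the 3 cells with most UMIs of the gene, to 34 higher and 30 lower at a minimum of 10 UMIs, and to 5 higher and 5 lower at 100 UMIs, where fewer pairs are tested. Under the other alternatives they lay between 12 and 20 higher and 7 and 12 lower. Of 1403 recomputed ratios, 1312 stayed within the counting interval of the value reported, 80 left it, and 11 ratios past 2-fold reversed; the cause was not tested. Reversed ratios were, for Cxcl2 in colonocyte-like cells, 0.17 at a mitochondrial limit of 10%, and for Cxcl13 there 0.56 at 10%, 1.08 at 50%, 0.46 with no limit, 1.04 at a minimum of 1000 UMIs and 1.16 without 3 cells. As a mean of each cell's CPM, Ackr3 was -1.40 in epithelial cells of no named type and Ccr7 was 0.42 in macrophage-like cells. Without 3 cells, Ccl22 was -0.78 in B-like cells, Ccl1 was 1.76 in lymphocyte-like cells and Ccr7 was 2.33 in macrophage-like cells. These 3, and Cxcl13 without 3 cells, show no reversal: 0 WT UMIs were left, so the values are set by the 0.5 added. Ccl5, Ccl3 and Ccr9 in lymphocyte-like cells and Cxcl1 in fibroblast-like cells stayed past 2-fold under all 16 alternatives run, with Ccl5 between -2.02 and -1.79 and Cxcl1 between 1.05 and 1.41. Removing the 6% of cells with the highest doublet scores was chosen after seeing the data. Plasma-like WT values rest on 45 cells, and sums under 30 UMIs carry wide intervals.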

Other observations

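A few classes were too small to compare. In lymphatic endothelial-like cells (20 AD, 13 WT), Ackr3 had 7 UMIs in AD and 15 in WT, Ackr2 had 5 UMIs in each library, and Cxcl16 had 9 in AD and 0 in WT. In enteric glia-like cells (3 AD, 36 WT), Cxcl12 had 3 UMIs in AD and 11 in WT, and Cxcl1 had 1 in AD and 7 in WT. Ccl24, an eosinophil attractant, was read almost only in macrophage-like cells, with 18 UMIs in AD and 6 in WT, and Xcr1, a receptor of cross-presenting dendritic cells, had 11 in AD and 6 in WT there.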
